A study of Mus musculus with 24 samples.

Results

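Gene expression was compared between the lumbar spinal cords of 4 SOD1-G37R mice and those of 4 littermates without the transgene (non-transgenic, NT), all of them males, the smaller of the study's experiments, which gave 8 of the 24 libraries of the series. SOD1-G37R mice express human SOD1 with the G37R mutation from a transgene that carries lox sites (loxSOD1), were bred with C57BL6 mice, develop a late-onset motor neuron disease and serve as a model of amyotrophic lateral sclerosis (ALS). Neither group received a treatment. The mice with motor signs were taken at the symptomatic stage, at about a year of age as the study gives it, and all were perfused with cold PBS before the cord was removed. These 8 libraries were chosen by the names of their columns, and their place in the all-male experiment rests on the study's methods together with those names. Libraries were made by MARS-seq, a 3′ end method in which every captured mRNA receives its own barcode. The authors deposited 1 batch-corrected log2 value per gene and mouse, called the level here, for 15524 genes. Each difference below is the mean of the 4 SOD1-G37R levels minus the mean of the 4 NT levels, and a gene was called higher or lower when its p in limma, adjusted over all genes by the Benjamini-Hochberg method, was under 0.05. limma is a linear model that shares the estimate of spread between genes.

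In mutant SOD1 disease, motor neurons of the spinal cord degenerate while the glia around them change state. Microglia, the resident macrophages of the cord, can lose genes of their resting state and take up a phagocytic, lipid-handling programme known as the disease-associated state. Astrocytes become reactive, with more intermediate filament protein and secreted protease inhibitors. Lysosomes degrade what is taken up, and cholesterol, which neurons obtain in part from glia, is made from acetyl-CoA in the mevalonate pathway.

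The 8 libraries resembled each other in scale. The median level over all genes lay between 4.15 and 4.22 in SOD1-G37R mice and between 4.08 and 4.16 in NT mice, and Pearson correlations between mice of one genotype, across genes, ran from 0.990 to 0.995. Defining transcripts of cord tissue were present in every mouse, with Mbp of myelin at 14.12 to 14.52 in SOD1-G37R mice and 14.21 to 14.51 in NT mice and Gfap of astrocytes at 12.19 to 13.07 in SOD1-G37R mice and 10.47 to 11.12 in NT mice. The 10th-paralogue Hox genes of the lumbar cord were present too, but varied within each genotype, with Hoxc10 at 6.65, 6.71, 5.95 and 6.76 in SOD1-G37R mice 1 to 4, against 6.39, 5.53, 7.09 and 7.56 in NT mice 1 to 4. The Hoxc10 values overlapped between the genotypes. SOD1-G37R mice 1 and 2 stood apart in haemoglobin transcripts, as Hba-a1 of the alpha chain was at 9.74, 8.54, 5.59 and 4.84 in SOD1-G37R mice 1 to 4, against 4.32, 4.92, 4.79 and 5.51 in NT mice 1 to 4. Mice 3 and 4 of that genotype lay close to the NT range, the haemoglobin genes were not called, and results are also given below without mice 1 and 2, a choice made after their values were seen. Mouse Sod1, the counterpart of the transgene, was at 10.50, 10.10, 10.11 and 10.11 in SOD1-G37R mice 1 to 4, against 10.23, 10.23, 10.32 and 10.26 in NT mice 1 to 4 and overlapped between the genotypes (log2 difference -0.06, standard error 0.12, limma adjusted p = 0.878). Reads were aligned to the mouse genome, so Sod1 is no check of the genotype labels, and transcripts of the human transgene are not analysed here.

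The 2 genotypes separated along the first principal component (PC1) of the 500 genes of highest variance, which held 63.8% of their variance. PC1 scores were 12.2, 11.3, 17.6 and 3.53 in SOD1-G37R mice 1 to 4, against -10.9, -8.55, -12.8 and -12.5 in NT mice 1 to 4. All SOD1-G37R scores lay above all NT scores, and the means of 11.2 ± 5.81 and -11.2 ± 1.95 (SD, n = 4 each) differed when tested by exact permutation, two-sided, with p = 0.0286, the lowest value possible for 4 against 4 mice. Spread was larger among SOD1-G37R mice, with mouse 3 at the far end and mouse 4 nearest to NT mice. The genes of largest positive weight were Serpina3n, Lgals3, Lyz2, Hbb-bs, Fcrls and Cd68, and Nefh and Kif5a were among those of most negative weight. The second component held 10.7% of the variance and its scores overlapped fully between the genotypes (exact permutation p = 1). Gapdh and Hbb-bs carried its largest absolute weights, and the next 6 were the haemoglobin genes Hba-a2, Hba-a1 and Hbb-bt and the predicted genes or pseudogenes Gm19087, Rpl36-ps2 and Gm1821.

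**Figure D1:**
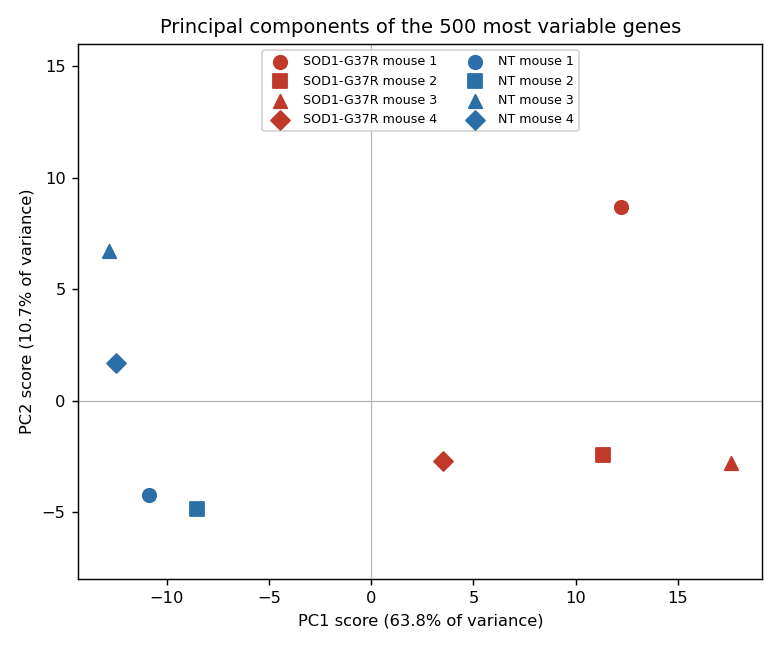
Scores of the 8 mice on the first (x axis) and second (y axis) principal component of the 500 most variable genes, 1 point per mouse. SOD1-G37R mice lie between 3.53 and 17.6 on the first component and NT mice between -12.8 and -8.55, while the second component mixes the genotypes.

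SOD1-G37R cords held 493 genes at a higher level than NT cords, 3.18% of the 15524 tested, and 65 genes at a lower level, 0.419%. Counts of called genes in the lists below are to be read against these shares. Differences of called genes reached 3.10 in the higher direction, and the most negative difference, -1.22 in the pseudogene Gm3200, was not called. Values of the genotypes did not overlap for 1018 genes in the higher direction, 6.56% of those tested, and for 477 in the lower direction, 3.07%. Calls depended on level: 0.167% of the 3599 genes at or below a level of 2 were higher, against 3.31% from 2 to 4, 4.35% from 4 to 6, 4.32% from 6 to 8 and 5.35% of the 898 genes above 8. Lower genes made up 1.78% of those above a level of 8 and none of those at or below 2. The size of a difference on this scale may be compressed at low levels, which was not tested. The median within-genotype SD was smallest there (0.126 at or below 2, against 0.216 from 4 to 6).

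SOD1-G37R mouse 3 had the highest level of its genotype for 364 of the 493 higher genes, and mouse 4 had the lowest for 326. Over all 15524 genes the same mice were highest for 4017 and lowest for 4035, close to an even share among 4 mice. For the 65 lower genes the order was turned round, with mouse 3 the lowest for 30 and mouse 4 the highest for 36. Leaving out 1 mouse at a time gave 291 to 613 higher and 8 to 160 lower genes. Without SOD1-G37R mouse 4 there were 613 and 160, without SOD1-G37R mouse 3 298 and 8, without SOD1-G37R mouse 1 379 and 28, without NT mouse 1 312 and 14, and without NT mouse 4 291 and 11. Of the 493 higher genes, 262 were called in each of these 8 fits, and of the 65 lower genes 3 were, Hmgcs1 among them. Without SOD1-G37R mice 1 and 2, the mice high in haemoglobin, 208 genes were higher and 6 lower, and 199 and 2 of these were among the 493 and the 65. All 493 kept a positive difference there, at a median of 1.03 times the difference from all mice. They were chosen as higher from data that include the remaining mice, so that sign is no independent support. The fit without SOD1-G37R mice 1 and 2 has 2 against 4 mice. A call lost in it, here or below, cannot be told apart from a loss through fewer mice.

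**Figure D2:**
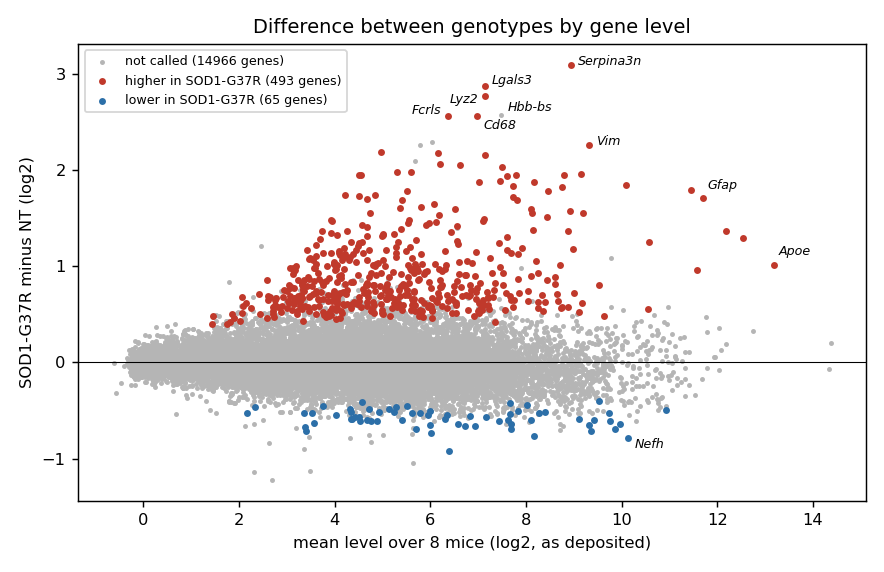
Difference SOD1-G37R minus NT (y axis, log2) against the mean level over 8 mice (x axis, log2), 1 point per gene, for 15524 genes. The 493 higher genes reach 3.10 (Serpina3n), the 65 lower genes lie closer to 0, with Nefh at -0.79, and Hbb-bs lies high without being called.

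Serpina3n, a secreted serine protease inhibitor of reactive astrocytes, changed most. Its level was 10.46, 10.50, 11.06 and 9.95 in SOD1-G37R mice 1 to 4, against 7.69, 7.52, 7.17 and 7.23 in NT mice 1 to 4. No value overlapped, and the difference of 3.10 (standard error 0.20, limma adjusted p = 2.1e-05) was the largest of the 15524, though reads of related Serpina3 genes can be counted to it. Lgals3, which encodes the galectin of activated phagocytes, was at 8.68, 8.34, 9.13 and 8.16 in SOD1-G37R mice 1 to 4, against 6.23, 5.82, 5.49 and 5.26 in NT mice 1 to 4 (log2 difference 2.88, standard error 0.23, limma adjusted p = 9.57e-05). Lyz2, a lysozyme of macrophages, was at 7.62, 9.17, 9.01 and 8.35 in SOD1-G37R mice 1 to 4, against 6.27, 6.09, 5.32 and 5.39 in NT mice 1 to 4 (log2 difference 2.77, standard error 0.31, limma adjusted p = 0.000412). Lowest of the SOD1-G37R values for Lyz2 was that of mouse 1, not mouse 4. Cd68, a glycoprotein of macrophage lysosomes, was at 8.09, 8.33, 8.92 and 7.70 in SOD1-G37R mice 1 to 4, against 5.97, 5.75, 5.53 and 5.56 in NT mice 1 to 4 (log2 difference 2.56, standard error 0.21, limma adjusted p = 9.57e-05). Fcrls, a receptor-like gene of microglia, followed with the same difference of 2.56 (limma adjusted p = 9.57e-05). Of the 15 largest rises above the median level, the others were Vim at a difference of 2.26, an intermediate filament gene, the growth factor gene Igf1 at 2.19, Fmod at 2.18, which encodes a collagen-binding proteoglycan, Cyba at 2.16, a subunit of the phagocyte NADPH oxidase, Cd52 at 2.06, the actin-capping gene Capg at 2.05, A2m at 2.03, a protease inhibitor, the proton channel gene Hvcn1 at 1.99, the stress-response gene Nupr1 at 1.98 and C1qc at 1.96. In all 15 the genotypes did not overlap, as the naming rule requires, and all 15 were called in each of the 8 fits without 1 mouse. RNA from bulk tissue cannot tell more cells of a type from more RNA per cell, here or below.

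**Figure D3:**
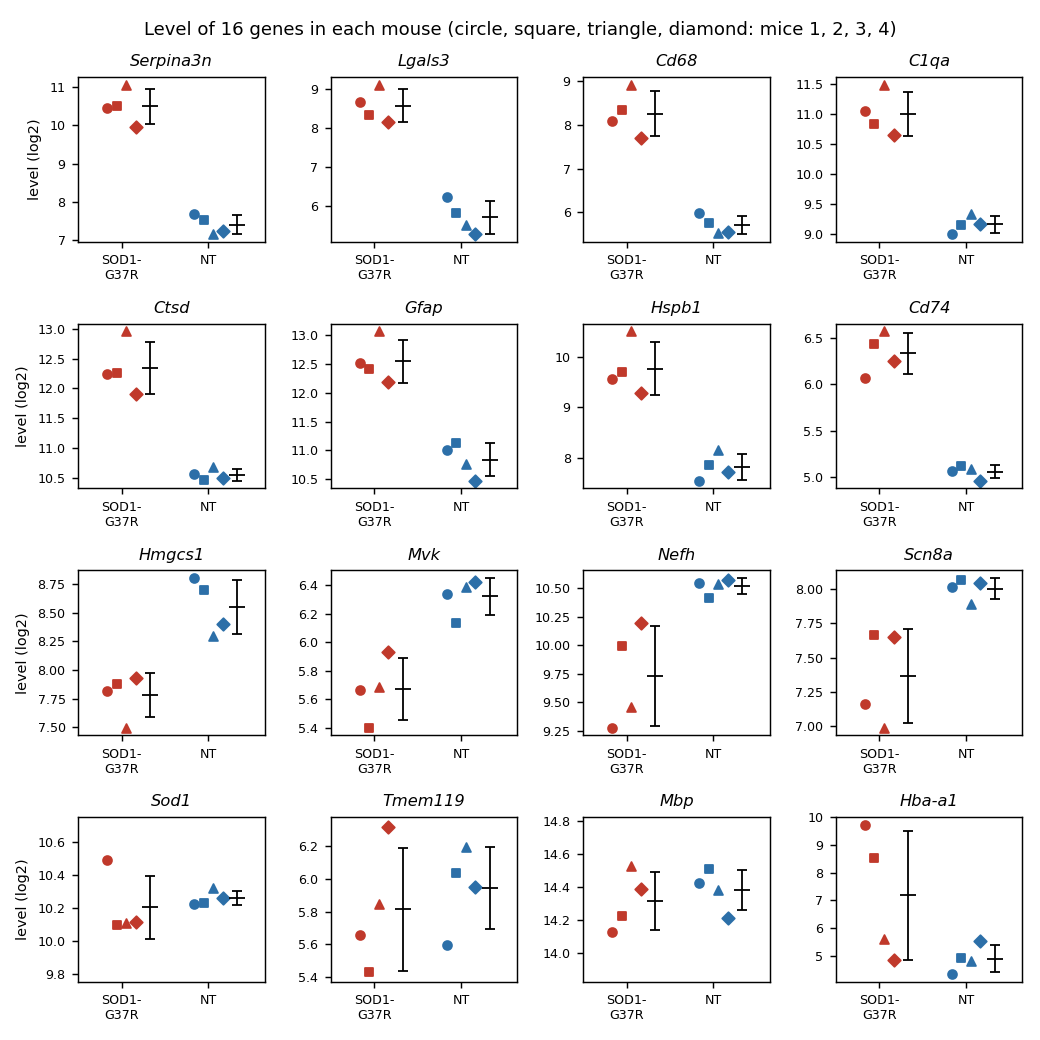
Level (y axis, log2, a separate scale for each gene) of 16 genes in each SOD1-G37R mouse (left, red) and NT mouse (right, blue), with the mean and SD of each genotype as black bars. Values of the first 12 genes do not overlap between the genotypes, with SOD1-G37R mouse 3 highest in the first 8, while Sod1, Tmem119, Mbp and Hba-a1 overlap.

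Disease-associated microglia genes had the highest list median apart from the haemoglobin list. Of 27 measured, 21 were higher, none was lower, and the median difference was 1.55, against 0.0 over all genes. Ctsd, which encodes the lysosomal protease cathepsin D, was at 12.24, 12.26, 12.96 and 11.91 in SOD1-G37R mice 1 to 4, against 10.56, 10.45, 10.69 and 10.49 in NT mice 1 to 4 (log2 difference 1.79, standard error 0.18, limma adjusted p = 0.000198). The mean over the list was 7.64, 7.98, 8.36 and 7.42 in SOD1-G37R mice 1 to 4, against 6.48, 6.57, 6.32 and 6.35 in NT mice 1 to 4. All SOD1-G37R means lay above all NT means, and mouse 3 again led. Apoe, the main lipid carrier of glia, was among the most abundant transcripts, at 13.70 ± 0.24 in SOD1-G37R mice and 12.68 ± 0.18 in NT mice (SD, n = 4 each), and rose by 1.02 (limma adjusted p = 0.0013). Spp1, the secreted phosphoprotein osteopontin, varied widely among SOD1-G37R mice, at 8.07, 9.13, 9.54 and 7.64 in SOD1-G37R mice 1 to 4, against 7.01, 7.08, 6.30 and 7.12 in NT mice 1 to 4. It was still called (limma adjusted p = 0.0148). Itgax, an integrin chain of the disease-associated state, rose by 1.94 (limma adjusted p = 0.000364) and Lpl, lipoprotein lipase, by 0.92 (limma adjusted p = 0.000898).

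Homeostatic genes of microglia were mostly not called, although 14 of 16 differences were positive. Of the list, 5 were higher, none was lower, and the median was 0.26. Those called included Fcrls and the fractalkine receptor gene Cx3cr1, at a difference of 0.93 (limma adjusted p = 0.00175). P2ry12, the purinergic receptor that marks resting microglia, was at 2.28, 2.59, 2.93 and 2.18 in SOD1-G37R mice 1 to 4, against 2.44, 2.59, 2.42 and 2.39 in NT mice 1 to 4. Tmem119, a membrane marker of microglia, was at 5.66, 5.43, 5.85 and 6.32 in SOD1-G37R mice 1 to 4, against 5.60, 6.03, 6.19 and 5.95 in NT mice 1 to 4. Both overlapped fully between the genotypes, with differences of 0.04 (standard error 0.15) and -0.13 (standard error 0.18). P2ry12 was a weakly measured gene. In contrast to these 2, all 9 measured markers shared by microglia and other macrophages were higher, with a median of 1.2. Aif1, the gene of Iba1, was at 6.58, 6.33, 6.77 and 5.77 in SOD1-G37R mice 1 to 4, against 5.39, 5.62, 4.98 and 4.96 in NT mice 1 to 4 (log2 difference 1.13, standard error 0.21, limma adjusted p = 0.00848). Spi1, which encodes the macrophage transcription factor PU.1, rose by 1.2 (limma adjusted p = 0.000747). Border macrophages and monocytes were covered by 5 measured genes, of which only Ms4a7 was called, at 5.29, 4.93, 5.83 and 4.32 in SOD1-G37R mice 1 to 4, against 3.19, 3.53, 3.51 and 3.19 in NT mice 1 to 4, with a difference of 1.74 (limma adjusted p = 0.00155). Pf4 and Cbr2 of the same list had differences of 0.36 and -0.04, both at low level and neither called.

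Complement genes were higher in part. Of 20 measured genes 10 were higher and none was lower, with a median of 0.42. C1qa was at 11.05, 10.84, 11.49 and 10.65 in SOD1-G37R mice 1 to 4, against 9.0, 9.16, 9.34 and 9.17 in NT mice 1 to 4 (log2 difference 1.84, standard error 0.16, limma adjusted p = 0.000105), and the other subunits of the C1q recognition molecule, C1qb and C1qc, rose by 1.57 and 1.96. C4b, a gene of the C4 protein that activated C1 cleaves, was at 9.34, 9.25, 9.66 and 9.13 in SOD1-G37R mice 1 to 4, against 7.86, 7.93, 7.13 and 7.31 in NT mice 1 to 4 (log2 difference 1.78, standard error 0.18, limma adjusted p = 0.000202), though C4a is nearly the same in sequence and its reads may be included. Genotypes did not overlap in any of these 4 genes. Fc receptors, which bind antibody, and their signalling partners showed 7 of 10 genes higher at a median of 0.89. Fcer1g, the shared signalling chain, rose by 1.88 (limma adjusted p = 0.000201), the inhibitory receptor gene Fcgr2b by 1.74, Fcgr3 by 1.65 and the phosphatase gene Ptpn6 by 1.55.

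Antigen presentation by MHC class II was less uniform. Cd74, the invariant chain that escorts class II molecules, was at 6.07, 6.44, 6.57 and 6.26 in SOD1-G37R mice 1 to 4, against 5.07, 5.12, 5.09 and 4.96 in NT mice 1 to 4 (log2 difference 1.27, standard error 0.12, limma adjusted p = 0.000136). H2-Aa, an alpha chain, was at 5.72, 5.32, 5.77 and 4.92 in SOD1-G37R mice 1 to 4, against 4.21, 4.29, 4.57 and 4.52 in NT mice 1 to 4 (log2 difference 1.03, standard error 0.18, limma adjusted p = 0.00533). H2-Eb1, a beta chain, was higher at a difference of 0.65 (limma adjusted p = 0.0348). Those were the 3 called of 8 measured. H2-Ab1 was at 5.73, 4.93, 5.08 and 4.21 in SOD1-G37R mice 1 to 4, against 3.60, 3.96, 4.41 and 4.53 in NT mice 1 to 4, where SOD1-G37R mouse 4 fell within the NT range (limma adjusted p = 0.125). H2-DMa and H2-DMb1, chains of the peptide exchanger, had differences of 0.56 (limma adjusted p = 0.0516) and 0.37 (limma adjusted p = 0.363) and were not called. The call of H2-Eb1 was lost in 6 of the 8 fits without 1 mouse (limma adjusted p up to 0.10), and 1 class II gene was called without SOD1-G37R mice 1 and 2. Among MHC class I genes 4 of 16 were higher, with H2-K1 at a difference of 0.93 (limma adjusted p = 0.00661), H2-T23 at 0.92, H2-D1 at 0.82 and the immunoproteasome subunit gene Psmb8 at 0.95. Only 1 class I gene was called without SOD1-G37R mice 1 and 2, and H2-D1 lost its call without SOD1-G37R mouse 1, 3 or 4 or NT mouse 1 or 3. H2-K1 and H2-D1 are similar in sequence, so reads can be shared between them.

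Interferon-stimulated genes did not follow the genotype. Of 20 measured, 2 were higher, Ifitm3 at a difference of 0.73 (limma adjusted p = 0.0302) and Lgals3bp at 0.93 (limma adjusted p = 0.0326), and the median was -0.11. The mean over the list was 4.31, 3.96, 4.06 and 4.37 in SOD1-G37R mice 1 to 4, against 3.82, 4.38, 3.75 and 4.46 in NT mice 1 to 4. Mice 1 and 4 were the higher ones among SOD1-G37R mice and mice 2 and 4 among NT mice, and the genotypes overlapped. Neither call held in all fits, and none was left without SOD1-G37R mouse 3, NT mouse 1 or NT mouse 3, nor without SOD1-G37R mice 1 and 2.

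Cytokine genes, their receptors and adhesion molecules of leukocytes rose in part. Of 17 cytokine and chemokine genes 7 were higher, among them Cxcl16 at a difference of 1.70 (limma adjusted p = 0.000706), Spp1 at 1.72, the macrophage chemokine genes Ccl3 at 1.37 and Ccl4 at 0.98, and Tgfb1 at 1.16. All 7 were called in each of the 8 fits without 1 mouse, and 4 without SOD1-G37R mice 1 and 2. Cytokine receptor and signalling genes had 16 of 29 higher, among them Tnfrsf1a, a TNF receptor, at a difference of 1.26, Csf2ra, the GM-CSF receptor, at 1.45, Tlr2 at 1.12 and the feedback inhibitor gene Socs3 at 0.98. Il2rg, the gamma chain shared by interleukin receptors, was at 3.49, 3.80, 3.94 and 3.36 in SOD1-G37R mice 1 to 4, against 2.63, 3.08, 3.14 and 2.92 in NT mice 1 to 4 (log2 difference 0.70, standard error 0.15, limma adjusted p = 0.0223). Its call was lost in 4 of the 8 fits, with a limma adjusted p of up to 0.0816, namely without SOD1-G37R mouse 2 or 3 or NT mouse 1 or 4. Of the 16 receptor and signalling calls, 9 held without SOD1-G37R mouse 3 or NT mouse 1 and 10 without NT mouse 4, and 7 genes were called without SOD1-G37R mice 1 and 2. Leukocyte adhesion and motility genes had 8 of 18 higher, of which 5 held without NT mouse 4, and 5 were called without SOD1-G37R mice 1 and 2. Itgb2, the beta chain of leukocyte integrins, rose by 1.79, Itgam, one of its partners, by 0.99, and Arhgdib, a regulator of small GTPases, by 1.17. Icam1, the endothelial and glial ligand of these integrins, was at 3.26, 3.95, 4.07 and 3.67 in SOD1-G37R mice 1 to 4, against 2.86, 2.91, 3.10 and 2.75 in NT mice 1 to 4 (log2 difference 0.83, standard error 0.16, limma adjusted p = 0.0125), and lost its call without NT mouse 4 (limma adjusted p = 0.0544). Cd44, a hyaluronan receptor, had a difference of 0.81 but overlapped between the genotypes, with SOD1-G37R mouse 4 at 3.86, and was not called (limma adjusted p = 0.0865). NADPH oxidase and inflammasome genes had 6 of 12 higher, with Cyba, Cybb at a difference of 1.28 from the oxidase and Pycard, the inflammasome adaptor, at 1.17.

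Many lysosomal genes were higher, but few of the proton pump that acidifies lysosomes. Of 32 measured lysosomal genes 18 were higher, none was lower, and the median was 0.77. Ctsz, an exopeptidase, rose by 1.60 (limma adjusted p = 0.000412), Laptm5, a lysosomal membrane protein of leukocytes, by 1.55, and Ctsl by 1.38. Ctss, the cathepsin that trims the invariant chain in macrophages, was at 9.08, 9.76, 10.02 and 9.38 in SOD1-G37R mice 1 to 4, against 8.24, 8.43, 7.80 and 8.31 in NT mice 1 to 4 (log2 difference 1.37, standard error 0.19, limma adjusted p = 0.00155). Ctsb was at 5.81, 5.67, 5.68 and 5.25 in SOD1-G37R mice 1 to 4, against 5.32, 5.05, 4.39 and 5.31 in NT mice 1 to 4, overlapped at the level of SOD1-G37R mouse 4 and was not called (limma adjusted p = 0.141). Lgmn, an asparaginyl endopeptidase, had a difference of 0.49 and was not called either (limma adjusted p = 0.0735). Among the proton pump genes, 1 of 15 was higher, Tcirg1 at a difference of 0.80 (limma adjusted p = 0.00826), the subunit known from macrophages and osteoclasts, and the median of the list was -0.04. Lipid handling genes had 6 of 16 higher, and 3 without SOD1-G37R mice 1 and 2. They included Ch25h, which makes 25-hydroxycholesterol and was at 4.42, 4.88, 5.06 and 4.39 in SOD1-G37R mice 1 to 4, against 3.28, 3.29, 3.17 and 3.11 in NT mice 1 to 4 (log2 difference 1.47, standard error 0.15, limma adjusted p = 0.000202), and Abca1, the cholesterol exporter, at a difference of 0.89 (limma adjusted p = 0.00582).

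Promoter sequence was available from RefSeq (GRCm38.p6, 250 bases before to 50 bases after each start site) for 11082 of the tested genes, 389 of the higher and 45 of the lower ones. The windows below show matches to motifs of factors known from these gene groups, in genes called here, each 30 bases and 5′ to 3′ on the gene's strand, with the match in capitals. The first set shows the PU.1-type motif GAGGAAGT in macrophage genes, the second the lysosomal gene motif GTCACGTG in cathepsin D, the third the AP-1 motif TGAGTCA in Cd68 and Itgax, and the last the sterol-response motif CACCCCAC in Hmgcs1, a lower gene described next. Either strand was accepted.
C1qc (chr4:136893091-136893120, strand -): ggacggcagacACTTCCTCattttggcaca
Ctss (chr3:95526773-95526802, strand +): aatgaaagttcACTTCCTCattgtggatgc
Ctsc (chr7:88277923-88277952, strand +): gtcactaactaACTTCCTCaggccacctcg
Spp1 (chr5:104434987-104435016, strand +): caaaaccagagGAGGAAGTgtaggagcagg
Pycard (chr7:127993893-127993922, strand -): gtccccaccccACTTCCTCcaccaacccac
Ctsd (chr7:142387907-142387936, strand -): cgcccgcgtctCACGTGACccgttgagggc
Cd68 (chr11:69666301-69666330, strand -): taagttccgtgTGAGTCAgctgcctcattc
Itgax (chr7:128129483-128129512, strand +): cccacctcctcTGAGTCAcgctgacaactt
Hmgcs1 (chr13:119690204-119690233, strand +): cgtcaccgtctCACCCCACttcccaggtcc
The PU.1-type motif was present in 24 of the 389 higher promoters (6.17%), none of the 45 lower ones and 3.54% of all. AP-1 was present in 26 of the higher promoters (6.68%), 1 lower and 4.50% of all. GTCACGTG was found in 3.60% of higher and 4.50% of all promoters, and CACCCCAC in 3.08% of higher, 4.44% of lower and 3.77% of all promoters. Of 25 lysosomal promoters, 4 held GTCACGTG, 4 AP-1, 3 the PU.1-type motif and none CACCCCAC. Of 12 cholesterol synthesis promoters, 2 held CACCCCAC, 2 GTCACGTG, 2 AP-1 and 1 the PU.1-type motif. TTCCNGGAA, of the STAT3 type, was in 2.06% of higher and 1.5% of all promoters, and GGGACTTTC, of the NF-kappaB type, in 0.514% and 0.496%. These 6 motifs were chosen with the gene results known. A match is a description of letters and not of binding, in Pycard the match to GAGGAAGT overlaps one to CACCCCAC, and no test was made.

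Cholesterol synthesis was the list with the most genes called lower. Of 18 measured, 5 were lower and none higher, against 0.419% of all genes lower, the median was -0.43, and 17 of the 18 differences were negative. Hmgcs1, the synthase ahead of the rate-limiting reductase, was at 7.82, 7.88, 7.50 and 7.93 in SOD1-G37R mice 1 to 4, against 8.80, 8.70, 8.30 and 8.40 in NT mice 1 to 4 (log2 difference -0.77, standard error 0.14, limma adjusted p = 0.00826). The Hmgcs1 values did not overlap between the genotypes. Mvk, mevalonate kinase, fell by 0.65 (limma adjusted p = 0.0125) and Fdps, farnesyl diphosphate synthase, fell by 0.61 (limma adjusted p = 0.0209). The mean over the list was 4.99, 4.96, 4.78 and 5.12 in SOD1-G37R mice 1 to 4, against 5.51, 5.46, 5.26 and 5.36 in NT mice 1 to 4. This put all SOD1-G37R means below all NT means. Calls among the 5 ranged from 2 without NT mouse 4 to 5 without SOD1-G37R mouse 4 or NT mouse 3, with 3 without SOD1-G37R mouse 3 or NT mouse 1, and none was left without SOD1-G37R mice 1 and 2.

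Reactive astrocyte genes were higher in part, while transporters and channels of resting astrocytes were mostly not called. 15 of 27 reactive genes were higher, none was lower, and the median was 0.81. Gfap, the astrocyte intermediate filament, was at 12.51, 12.41, 13.07 and 12.19 in SOD1-G37R mice 1 to 4, against 11.01, 11.12, 10.76 and 10.47 in NT mice 1 to 4 (log2 difference 1.71, standard error 0.19, limma adjusted p = 0.000364). Vim was at 10.39, 10.53, 10.91 and 9.98 in SOD1-G37R mice 1 to 4, against 8.68, 8.39, 7.78 and 7.91 in NT mice 1 to 4 (log2 difference 2.26, standard error 0.22, limma adjusted p = 0.000136). Timp1, an inhibitor of matrix metalloproteases, was at 5.74, 5.51, 6.11 and 4.61 in SOD1-G37R mice 1 to 4, against 3.53, 3.81, 3.45 and 3.41 in NT mice 1 to 4 (log2 difference 1.94, standard error 0.25, limma adjusted p = 0.00078). None of these 3 genes overlapped between the genotypes. The list does not separate astrocytes from microglia, as with Vim and C4b, which both can express. Among its higher genes, C3 and C4b are also counted with complement and Psmb8 with MHC class I. The number of higher genes is therefore not a count for astrocytes alone. Of 20 homeostatic genes, Mlc1, a membrane protein of astrocyte endfeet, was higher at a difference of 0.57 (limma adjusted p = 0.0216), and Slc7a10, an amino acid transporter for serine and glycine, was lower at -0.56 (limma adjusted p = 0.0231). Both calls were lost without SOD1-G37R mouse 1, SOD1-G37R mouse 3, NT mouse 1 or NT mouse 4, and without SOD1-G37R mice 1 and 2. Aqp4, the endfoot water channel, was at 8.28, 8.85, 8.55 and 7.87 in SOD1-G37R mice 1 to 4, against 7.84, 7.79, 6.68 and 7.33 in NT mice 1 to 4, without overlap, and just missed the threshold (limma adjusted p = 0.0518). The median of the list was -0.02.

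**Figure D4:**
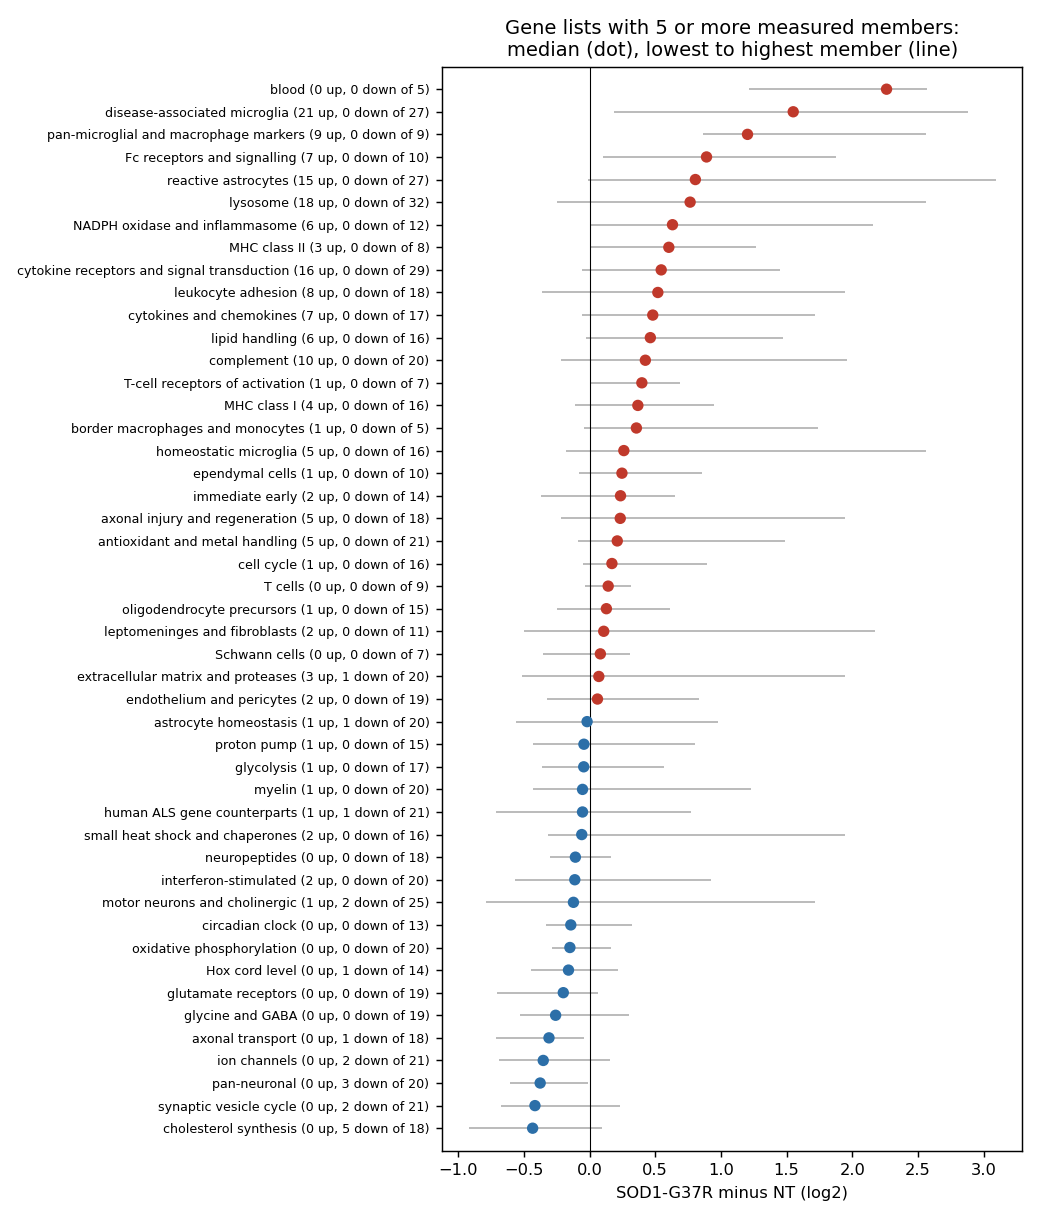
Median difference SOD1-G37R minus NT (x axis, log2) of each gene list with 5 or more measured members (dots, red above 0 and blue below), with the lowest and highest member (lines), and in brackets the numbers of members called higher (up) and lower (down). Most microglial and immune lists and the reactive astrocyte list lie to the right, with the haemoglobin list (blood) at the top, whose members were not called. Neuronal lists and cholesterol synthesis (median -0.43) lie to the left, and so do interferon-stimulated genes, astrocyte homeostasis and myelin at medians of -0.11, -0.02 and -0.05.

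Neuronal transcripts leaned lower, though most were not called. All 20 differences of the 20 measured pan-neuronal genes were negative, and their median was -0.38. Of these genes 3 were called lower. Over all 15524 genes, 0.419% were lower and 7810 differences were negative. Snap25, a core protein of synaptic vesicle fusion, was at 9.19, 9.63, 9.32 and 9.71 in SOD1-G37R mice 1 to 4, against 10.17, 10.23, 9.78 and 10.10 in NT mice 1 to 4 (log2 difference -0.61, standard error 0.14, limma adjusted p = 0.0349). Rbfox3, the gene of the neuronal nuclear marker NeuN, fell by 0.60 (limma adjusted p = 0.0396), and Ina, a neurofilament-associated subunit, fell by 0.59 (limma adjusted p = 0.0224). The mean over the list was 8.54, 8.77, 8.52 and 8.90 in SOD1-G37R mice 1 to 4, against 9.03, 8.94, 9.17 and 8.99 in NT mice 1 to 4. The genotypes did not overlap, and SOD1-G37R mice 1 and 3 were lowest. None of the 3 calls was left without SOD1-G37R mouse 1, SOD1-G37R mouse 3, NT mouse 1, NT mouse 2 or NT mouse 4, nor without SOD1-G37R mice 1 and 2. Synaptic vesicle genes had 2 of 21 lower, Snap25 and the complexin gene Cplx1 at a difference of -0.64 (limma adjusted p = 0.0177), at a median of -0.42, and 19 differences were negative. When each mouse was centred on its median level, 5 of them were called. Snap25 and Cplx1 both lost their call without SOD1-G37R mouse 3, NT mouse 1 or NT mouse 4, and 1 gene of the list was called without SOD1-G37R mice 1 and 2.

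Ion channel genes of neurons had 2 of 21 lower and 19 negative differences, against 0.419% lower and 7810 of 15524 negative over all genes. Scn8a, the sodium channel of nodes of Ranvier and axon initial segments, was at 7.16, 7.67, 6.99 and 7.65 in SOD1-G37R mice 1 to 4, against 8.02, 8.07, 7.89 and 8.05 in NT mice 1 to 4 (log2 difference -0.64, standard error 0.15, limma adjusted p = 0.0378). Its values did not overlap, but Scn8a lost its call in 6 of the 8 fits without 1 mouse (limma adjusted p up to 0.113), all but those without SOD1-G37R mouse 2 or mouse 4. No ion channel gene was called lower without SOD1-G37R mice 1 and 2. No gene of glycine and GABA transmission (19 measured, median -0.26), of the glutamate receptors (19 measured, median -0.20) or among the neuropeptides (18 measured, median -0.11) was called. Slc6a5, the glycine transporter of inhibitory neurons, was at 5.30, 5.82, 4.91 and 5.63 in SOD1-G37R mice 1 to 4, against 6.16, 6.0, 5.66 and 5.97 in NT mice 1 to 4, overlapping (limma adjusted p = 0.148), and Grin1, the shared NMDA receptor subunit, had a difference of -0.70 (limma adjusted p = 0.0603). All 18 of 18 axonal transport genes had negative differences at a median of -0.31, and 1 of them, the kinesin gene Kif5a, was called lower. Kif5a, a motor for neurofilaments whose human counterpart is an ALS gene, was at 8.79, 9.02, 8.66 and 9.55 in SOD1-G37R mice 1 to 4, against 9.92, 9.56, 9.64 and 9.73 in NT mice 1 to 4 (log2 difference -0.71, standard error 0.17, limma adjusted p = 0.039). Its call was left only without SOD1-G37R mouse 4.

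Motor neuron genes were mostly not called, and 19 of 25 differences were negative. Nefh, the heavy neurofilament subunit abundant in motor axons, was at 9.28, 9.99, 9.46 and 10.20 in SOD1-G37R mice 1 to 4, against 10.55, 10.42, 10.54 and 10.57 in NT mice 1 to 4 (log2 difference -0.79, standard error 0.18, limma adjusted p = 0.0273). SOD1-G37R mice 1 and 3 were the low ones, and the NT mice lay close together without overlap. Nefl, the light subunit, was at 7.88, 7.80, 7.97 and 8.37 in SOD1-G37R mice 1 to 4, against 8.58, 8.64, 8.37 and 8.55 in NT mice 1 to 4 (log2 difference -0.53, standard error 0.13, limma adjusted p = 0.0491). SOD1-G37R mouse 4 met NT mouse 3 there, and Nefm had a difference of -0.61 (limma adjusted p = 0.0534). Chat, the enzyme that makes acetylcholine, was at 2.63, 3.30, 3.44 and 3.34 in SOD1-G37R mice 1 to 4, against 3.41, 3.56, 3.97 and 3.68 in NT mice 1 to 4, overlapped between the genotypes and was not called (limma adjusted p = 0.186). Of 25 genes on the list, 2 were lower, against 0.419% of all genes. Only 1 was higher, Spp1, which is also on the list of disease-associated microglia genes. The 2 lower calls were both lost without SOD1-G37R mouse 1, SOD1-G37R mouse 3, NT mouse 1 or NT mouse 4. No gene of the list was called without SOD1-G37R mice 1 and 2. Others of the 15 largest falls above the median level were Panx2 at a difference of -0.69, a pannexin channel, the potassium channel gene Kcnk12 at -0.69, Acsl3 at -0.66, which activates fatty acids, Dffa at -0.66, the inhibitor of a DNA fragmentation nuclease, Rph3a at -0.65, a vesicle protein bound by Rab3, and Gng13 at -0.63, a G protein subunit. Of the 15, 14 were called without SOD1-G37R mouse 4, 10 without SOD1-G37R mouse 2 or NT mouse 2, 9 without NT mouse 3, 7 without SOD1-G37R mouse 1, 5 without NT mouse 1, 4 without SOD1-G37R mouse 3 and 3 without NT mouse 4. The call of Gng13 (limma adjusted p = 0.0449) was lost in all 8 fits without 1 mouse (limma adjusted p of 0.0539 to 0.141).

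Genes of axonal injury and stress rose in part. Atf3, a transcription factor induced in injured neurons, was at 5.05, 4.99, 5.14 and 4.57 in SOD1-G37R mice 1 to 4, against 3.74, 3.84, 3.50 and 3.21 in NT mice 1 to 4 (log2 difference 1.36, standard error 0.16, limma adjusted p = 0.000532). Atf5, which acts in the response to stressed mitochondria and proteins, rose by 0.82 (limma adjusted p = 0.00899). Of 18 genes on the list 5 were higher, Jun among them at a difference of 0.51. Only 3 of the 5 held without SOD1-G37R mouse 1 or 3 or NT mouse 1 or 4, and 2 genes were called without SOD1-G37R mice 1 and 2. Hspb1, a small heat shock protein of reactive astrocytes and stressed neurons, was at 9.56, 9.71, 10.51 and 9.29 in SOD1-G37R mice 1 to 4, against 7.54, 7.86, 8.16 and 7.72 in NT mice 1 to 4 (log2 difference 1.95, standard error 0.22, limma adjusted p = 0.00042). Neither Atf3 nor Hspb1 overlapped between the genotypes. Of 16 chaperone genes only Hspb1 and Cryab, at a difference of 0.56 (limma adjusted p = 0.0493), were called, the median was -0.06, and the call of Cryab was left only without SOD1-G37R mouse 4. Among antioxidant and metal-binding genes 5 of 21 were higher. Mt2, a metallothionein that binds zinc and copper, was at 12.91, 12.67, 13.27 and 12.59 in SOD1-G37R mice 1 to 4, against 11.21, 11.58, 11.56 and 11.64 in NT mice 1 to 4 (log2 difference 1.36, standard error 0.15, limma adjusted p = 0.00042). Its relative Mt1 rose by 1.29. The ferritin light chain gene Ftl1, which has near-identical copies, rose by 1.49, and Prdx6, a peroxiredoxin of astrocytes, by 1.25 with NT levels of 9.94 to 9.96. Among 21 mouse counterparts of human ALS genes, Ang was higher at a difference of 0.78 (limma adjusted p = 0.049) and Kif5a lower, while C9orf72 had a difference of -0.18 (limma adjusted p = 0.46). The call of Ang was lost in 6 of the 8 fits without 1 mouse, all but those without SOD1-G37R mouse 1 or mouse 4, and no gene of the list was called without SOD1-G37R mice 1 and 2.

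**Figure D5:**
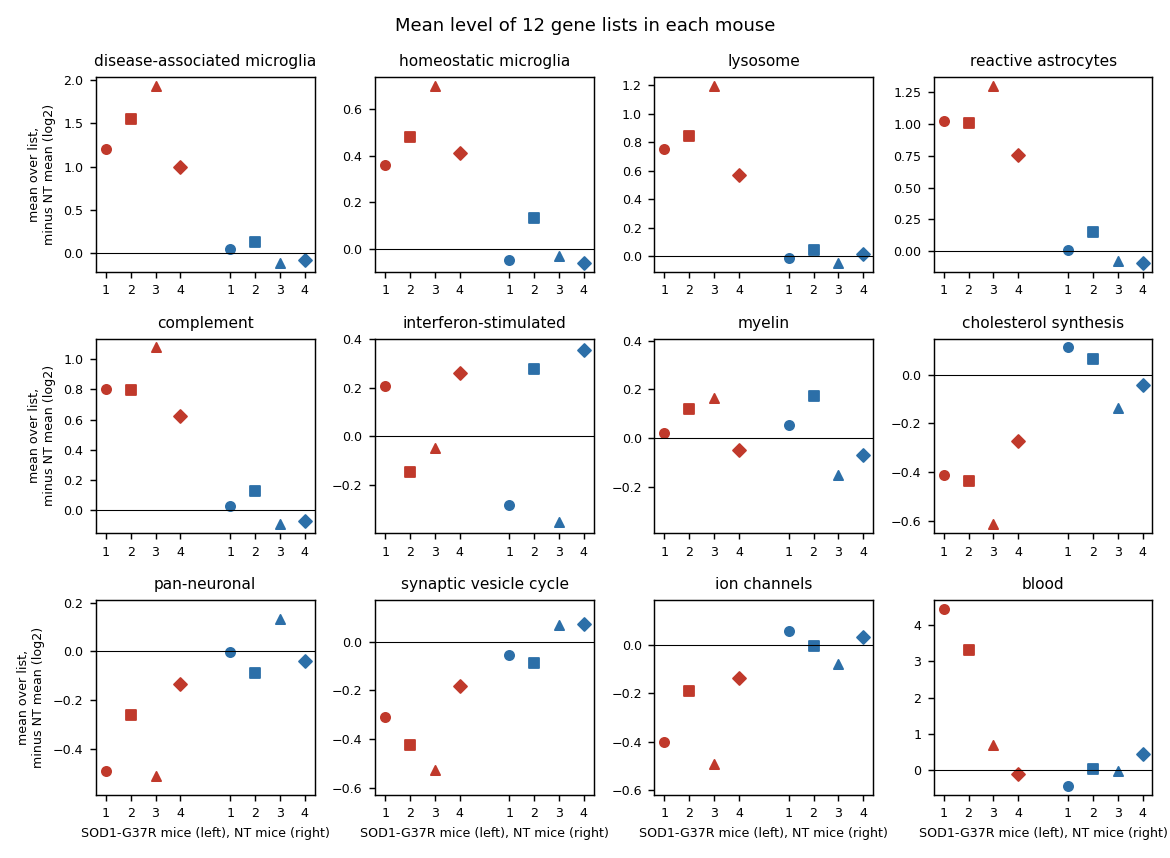
Mean level of 12 gene lists in each mouse, given as the difference from the mean of the 4 NT mice (y axis, log2, a separate scale for each list), with SOD1-G37R mice on the left (red) and NT mice on the right (blue). SOD1-G37R mouse 3 is the highest of its genotype for the microglial, lysosome, complement, reactive astrocyte and myelin lists and the lowest for cholesterol synthesis and the pan-neuronal, synaptic vesicle and ion channel lists, interferon-stimulated genes vary within both genotypes, and the haemoglobin genes (blood) are high in SOD1-G37R mice 1 and 2.

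Myelin transcripts differed little. Of 20 genes only Opalin, a membrane protein of oligodendrocytes, was called, at 7.49, 7.13, 7.71 and 6.47 in SOD1-G37R mice 1 to 4, against 6.44, 5.90, 5.74 and 5.80 in NT mice 1 to 4 (log2 difference 1.23, standard error 0.24, limma adjusted p = 0.0112), and the median was -0.05. Mbp had a difference of -0.07 (standard error 0.12) and overlapped between the genotypes. Among 15 lineage genes Itpr2, a calcium channel gene of newly formed oligodendrocytes, was higher at a difference of 0.60 (limma adjusted p = 0.0112), and Gpr17 of the same stage had a difference of 0.61 (limma adjusted p = 0.0811). Opalin and Itpr2 were both called in each of the 8 fits, but neither without SOD1-G37R mice 1 and 2.

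T cell transcripts were near the lower end of the scale. Only 9 of the 22 listed T cell genes were measured, and Cd3e and Cd4 were not among the 9. None of the 9 measured T cell genes was called, their median difference was 0.14, and their median level was 1.16. Cd8a was at 0.06, -0.25, -0.15 and 0.12 in SOD1-G37R mice 1 to 4, against -0.28, -0.26, -0.27 and -0.29 in NT mice 1 to 4, near the lower end of the values, and Trac, the constant region of the receptor alpha chain, was at 3.75, 3.63, 3.63 and 3.18 in SOD1-G37R mice 1 to 4, against 3.62, 3.44, 3.16 and 3.20 in NT mice 1 to 4. The Cd8a values did not overlap and those of Trac did, yet neither was called (limma adjusted p = 0.361 and 0.593). Of 7 receptors known from activated T cells, which other cells can also express, Pdcd1, the gene of PD-1, was at 2.63, 2.88, 3.28 and 3.02 in SOD1-G37R mice 1 to 4, against 2.36, 2.26, 2.24 and 2.19 in NT mice 1 to 4 (log2 difference 0.69, standard error 0.13, limma adjusted p = 0.0116). Lag3 was not called at a difference of 0.44 (limma adjusted p = 0.141), nor was Cd81, a tetraspanin abundant in glia, at a difference of 0.40 (limma adjusted p = 0.103). Igkc of B cells was at -0.09 to -0.07 in SOD1-G37R mice and -0.11 to -0.07 in NT mice. Ighm, the other measured gene of the B and plasma cell list, had a difference of -0.55 and was not called (limma adjusted p = 0.0978). The number of molecules behind low levels such as those of Cd8a and Igkc is not given in the sources used here.

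Markers of other tissues were examined in the same way, beside 3.18% of all genes called higher. None of 7 Schwann cell genes and none of 3 muscle genes was called, and Prx, the periaxin of peripheral myelin, was at -0.36 to 0.09 in SOD1-G37R mice and -0.38 to -0.32 in NT mice. Prx was low for its list, as the median level of the 7 Schwann cell genes was 3.70. Leptomeningeal and fibroblast genes had 2 of 11 higher, Fmod, at 7.22, 6.93, 8.18 and 6.66 in SOD1-G37R mice 1 to 4, against 5.04, 5.41, 5.09 and 4.73 in NT mice 1 to 4, and Aebp1, an extracellular carboxypeptidase-like protein, at a difference of 0.69 (limma adjusted p = 0.00787). The median level of these 11 genes was 5.48, against 4.17 over all genes. Their mean level was 4.88 to 5.12 in SOD1-G37R mice and 4.58 to 4.67 in NT mice, without overlap. The fibroblast genes Dcn and Col1a1 were low in both genotypes. Dcn was at 1.55 to 1.85 in SOD1-G37R mice and 1.39 to 1.68 in NT mice. Col1a1 was at -0.21 to -0.02 in SOD1-G37R mice and -0.16 to -0.09 in NT mice. Of 10 ependymal genes only Rarres2 was called, at a difference of 0.75 (limma adjusted p = 0.0163), but not without SOD1-G37R mouse 1 or 3 or NT mouse 4. Foxj1, the master gene of motile cilia, had a difference of 0.49 without overlap (limma adjusted p = 0.055). Endothelial and pericyte genes had 2 of 19 higher, Icam1 and Kcnj8, a potassium channel of pericytes, at a difference of 0.50 (limma adjusted p = 0.0444), and both were lost without NT mouse 4. Kcnj8 was also lost without SOD1-G37R mouse 1 or 3 or NT mouse 1 or 2. Csf3r, a receptor of neutrophils that microglia also express, rose by 0.85 (limma adjusted p = 0.00786), while Mmp9 had a difference of -0.09. The 5 genes of red blood cells had a median difference of 2.26 with none called. Alas2, the haem synthesis enzyme of red cell precursors, was at 4.70, 3.45, 2.12 and 1.96 in SOD1-G37R mice 1 to 4, against 1.75, 1.94, 1.83 and 1.86 in NT mice 1 to 4. SOD1-G37R mice 1 and 2 were thus high in it as in haemoglobin. The part of blood in the other results was not tested. Counts without these 2 mice also rest on fewer mice and cannot tell the 2 apart.

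Few genes of housekeeping pathways were called, where 3.18% of all genes were higher and 0.419% lower. None of 20 oxidative phosphorylation genes was called (median -0.15), nor any of 13 clock genes. Glycolysis had 1 of 17 higher, Ldha, which makes lactate, at a difference of 0.57 (limma adjusted p = 0.0139), and cell cycle genes 1 of 16, Ccnd1, the cyclin D1 gene, at 6.99, 7.60, 7.72 and 7.23 in SOD1-G37R mice 1 to 4, against 6.57, 6.38, 6.65 and 6.36 in NT mice 1 to 4 (log2 difference 0.90, standard error 0.16, limma adjusted p = 0.00639). Top2a, a gene of dividing cells, was at 1.13 to 1.56 in SOD1-G37R mice and 1.05 to 1.14 in NT mice and was not called. Jun and Junb, at a difference of 0.65 (limma adjusted p = 0.0145), were the 2 called of 14 immediate early genes. Neither was called without SOD1-G37R mouse 3, Jun was also lost without SOD1-G37R mouse 1 or NT mouse 1 or 4, and Ldha was lost without SOD1-G37R mouse 3 or NT mouse 1. Of the extracellular matrix and protease genes 3 of 20 were higher, Timp1, Mmp14 at a difference of 0.82 and Mmp19 at 0.76, where only Timp1 held without NT mouse 1 or NT mouse 4. Acan, the aggrecan of perineuronal nets, was lower at -0.51 (limma adjusted p = 0.0422). Acan and Hoxa7, the called gene of 14 Hox genes at a difference of -0.45 (limma adjusted p = 0.0446), were each called in just 1 of the 8 fits, that without SOD1-G37R mouse 4. None of Csf3r, Rarres2, Ldha, Jun, Junb, Acan and Hoxa7 was called without SOD1-G37R mice 1 and 2. Hox genes of the 10 group differed by -0.12, -0.04 and 0.04 for Hoxc10, Hoxd10 and Hoxa10, with standard errors of 0.31 to 0.39 and overlap in all 3 genes.

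Some called genes were weakly expressed. Of the genes below the median level of 4.17, the 8 of smallest adjusted p were all higher. They were Cybb, the catalytic subunit of the phagocyte oxidase, at 4.12, 4.45, 4.57 and 4.21 in SOD1-G37R mice 1 to 4, against 3.0, 3.25, 3.05 and 2.94 in NT mice 1 to 4 (log2 difference 1.28, standard error 0.13, limma adjusted p = 0.000164), Ch25h, Apobec3, an antiviral deaminase, at a difference of 0.88, Ctsc, a cathepsin that activates serine proteases, at a difference of 1.03, Crym, a thyroid hormone-binding crystallin, at a difference of 1.07, Lpl, Cd109, a membrane-bound relative of A2m, at a difference of 1.33, and Ly9, a receptor of the SLAM family, at a difference of 1.17. Apobec3 was at 4.30, 4.17, 4.37 and 4.48 in SOD1-G37R mice 1 to 4, against 3.35, 3.59, 3.39 and 3.46 in NT mice 1 to 4. It was the only one of these in which SOD1-G37R mouse 4 was the highest. All 8 were called in each of the 8 fits without 1 mouse.

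Some genes varied widely within a genotype. Apart from haemoglobin, Gapdh, which has many near-identical pseudogene copies, was at 10.48, 7.57, 6.93 and 6.79 in SOD1-G37R mice 1 to 4, against 6.50, 6.55, 7.01 and 10.38 in NT mice 1 to 4. In each genotype 1 mouse was far above the others. Tmsb4x, an actin-binding peptide gene with similar copies, was at 6.44, 8.83, 7.72 and 6.82 in SOD1-G37R mice 1 to 4, against 6.63, 7.24, 6.87 and 6.88 in NT mice 1 to 4. Rpl36-ps2, a ribosomal protein pseudogene, was at 3.12 to 4.4 in SOD1-G37R mice, and at 3.64, 3.57, 7.94 and 3.72 in NT mice 1 to 4. NT mouse 3 stood alone. None of these genes was called.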

How the data were processed

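Total RNA of the lumbar cord (RNeasy plus mini) was made into MARS-seq libraries, whose molecules carry unique identifiers. Per the submitters' processing notes, Trim Galore 0.4.5, cutadapt 1.15, STAR 2.5.2a and RSEM 1.2.28 were used with GRCm38. The authors deposited log2 values after ComBat batch correction. How the values were transformed before that is not given in the sources used here, and the deposited values do not hold the depth of each mouse, so no counting error was computed. Batch correction over all experiments can alter levels and spread. The authors' columns of comparisons (linear fold changes, p-values and adjusted p-values) were not used.

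The 8 mice alone entered a two-sided limma fit (version 3.58.1, R 4.3.3) with no filter, no pseudocount and Benjamini-Hochberg adjustment over 15524 genes. A fold change on this scale may understate low genes. The samples are separate mice. Principal components were tested by exact permutation over mice. Lists were described by counts and medians. Named genes were the 15 largest called, non-overlapping changes in each direction above the median level, the 4 or fewer best-ranked members by adjusted p in each of 50 lists, Sod1, genes the study names, the 8 most variable genes in each genotype, tissue markers and the 8 called genes of smallest adjusted p below the median level. Experiment, genes and lists were chosen with earlier results of these data known. Some named genes are not reported here. The fit was also run on simulated data with normal noise that was independent between genes, and the outcome is not given here. Such noise holds no shift of many genes in the same mouse. Alternatives were a replicate block, each mouse left out, an intensity trend, array weights, filters on level, centring, quantile scaling and other thresholds.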

Additional observations from a re-analysis of the deposited data

Results flagged for a closer look

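Each genotype's 4 values of every gene named in the report and of the PC1 score, 308 sets of values in all, were examined for a single mouse far from the other 3, by the share of the range that separates it from its nearest neighbour. In 12 sets this share passed Dixon's critical value for 4 samples, and chance alone gives about 1 in 20. Among SOD1-G37R mice, mouse 3 stood above the others in Csf2ra (share 0.934, at 7.30, nearest 6.54) and in Fcgr3 (0.835, at 7.68, nearest 6.73), and below them in Hoxc10 (0.874, at 5.95, nearest 6.65). Mouse 1 of the same genotype stood above the others in mouse Sod1 (0.962, at 10.50, nearest 10.11). Among NT mice, mouse 4 was the low one in Capg (0.897), H2-DMb1 (0.857) and Spi1 (0.855), and the high one in Gapdh (0.868) and Ina (0.842). NT mouse 3 was the low one in Spp1 (0.862) and the high one in Gng13 (0.870) and in Rpl36-ps2 (0.967, at 7.94, nearest 3.72).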

How the results depend on the processing

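Of the 493 higher genes, all that entered a fit kept a positive difference in each setting tried (487 with genes above level 2 only, 333 with genes above the median level only, 493 in the others), but the counts of calls moved. The genes were chosen as positive in the same mice. With the replicate block, intensity trend, level filters and other thresholds the difference itself does not change. The kept signs were thus largely fixed in advance and are no support. Leaving out 1 mouse gave 291 to 613 higher genes, 8 to 160 lower genes and a difference in PC1 score of 20.2 to 25.0. An intensity trend in limma gave 103 lower genes, an adjusted p under 0.01 gave 247 higher and 1 lower, and an adjusted p under 0.10 gave 175 lower. Without SOD1-G37R mice 1 and 2, an alternative added once the data had been seen, higher genes numbered 208 and lower genes 6, and the PC1 difference was 22.8 (exact permutation p = 0.0667, the smallest that 2 against 4 allows). Centring each mouse on its median, which shifted the median difference of all genes by -0.049, gave 388 higher and 97 lower genes, so the share of calls that were higher was 80.0%, against 88.4% as deposited. Replicate numbers did not pair the mice: same-numbered deviations correlated at -0.166, 0.24, 0.0543 and 0.0187, and 2 of 4 mice correlated best with their own number. The replicate block gave 508 higher and 62 lower genes and a PC1 difference of 22.9.

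Signs turned only for uncalled genes. Without 1 mouse at a time, the log2 difference of Gapdh ran from -0.52 to 1.25, the log2 difference of Col1a1 from -0.0378 to 0.0265, the log2 difference of Hoxc10 from -0.49 to 0.18, the log2 difference of Hoxd10 from -0.40 to 0.27, the log2 difference of Hoxa10 from -0.24 to 0.26, the log2 difference of P2ry12 from -0.11 to 0.14, the log2 difference of Cbr2 from -0.0980 to 0.0617 and the log2 difference of Rpl36-ps2 from -1.17 to 0.29. With centring the same quantity was -0.0470 for Col1a1, -0.00692 for Hoxa10, -0.0111 for P2ry12 and -0.0339 for Igkc (log2 difference of Igkc). Without SOD1-G37R mice 1 and 2 it was -0.76 for Gapdh, -0.0584 for Hoxa10, 0.0759 for Mbp (log2 difference of Mbp) and 0.14 for Tmem119 (log2 difference of Tmem119). The causes were not tested. The depth of each mouse was not used here, so no counting error is given for low levels.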
